A study of Mus musculus with 8 samples.

Results

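The integrin and laminin genes were taken as the protein-coding genes of GENCODE M21 whose symbols name an integrin alpha subunit (Itga), an integrin beta subunit (Itgb) or a laminin chain (Lama, Lamb or Lamc). This gave 37 of the 21755 protein-coding genes on chromosomes 1 to 19 and X. Chromatin accessibility had been measured by ATAC-seq, in which the Tn5 transposase cuts open chromatin, in cell lines grown from mammary tumors of mice (strain label FBV/N) carrying the PyMT oncogene. The lines were WT or Lats1-CKO, and each culture was FACS-sorted and briefly expanded into a luminal subpopulation (EpCAM-high, CD49f-high) and a basal-like one (EpCAM-low, CD49f-high). Lats1 encodes a kinase of the Hippo pathway. The sources do not give the Cre driver or the deleted exons. Each group had 2 libraries. WT luminal is BM1 with BM5. WT basal-like is BM2 with BM6. Lats1-CKO luminal is BM3 with BM7, while BM4 with BM8 make up Lats1-CKO basal-like. The study calls the pair of a group biological replicates. The labels do not say which libraries came from 1 cell line or tumor, and p-values measure the spread between these libraries.

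Integrins are receptors made of an alpha and a beta subunit that tie cells to the extracellular matrix. Laminins are trimers of an alpha, a beta and a gamma chain and form the core of basement membranes. In mammary epithelium the integrin of Itga6 and Itgb4 anchors basal cells through hemidesmosomes to laminin-332, whose chains include the products of Lama3 and Lamb3. Integrins with the beta subunit Itgb1 bind laminins and collagens, and those built on Itgav bind RGD motifs in matrix proteins and on latent TGF-beta. CD49f, on which both subpopulations were gated as high, is the protein of Itga6, so the presence of that gene was fixed by the sort.

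The regions that carry the patterns described further on are shown first, with the build GRCm38.p6, which has the coordinates of mm10. Bases are in lower case, and capitals mark matches on either strand to AP-1 (TGANTCA), TEAD (GGAATG), RUNX (TGTGGT), Sp/KLF (GGGCGG) or E-box (CAGGTG) letters. The promoters are RefSeq windows from 250 bases before to 50 after a gene's start, on the strand of the gene. The intronic windows are the 300 bases around the centre of a region, on the plus strand.
Lamb3 promoter, chr1:193301744-193302043, which lacked a peak in 3 libraries: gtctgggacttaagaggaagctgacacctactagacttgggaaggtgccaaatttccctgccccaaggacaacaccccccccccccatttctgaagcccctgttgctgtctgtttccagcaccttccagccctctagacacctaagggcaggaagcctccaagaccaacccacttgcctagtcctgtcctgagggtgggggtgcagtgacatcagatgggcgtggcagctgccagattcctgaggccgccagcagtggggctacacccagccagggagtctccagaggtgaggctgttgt
Itgb1 promoter, chr8:128685404-128685703, with a high-scoring peak in every library: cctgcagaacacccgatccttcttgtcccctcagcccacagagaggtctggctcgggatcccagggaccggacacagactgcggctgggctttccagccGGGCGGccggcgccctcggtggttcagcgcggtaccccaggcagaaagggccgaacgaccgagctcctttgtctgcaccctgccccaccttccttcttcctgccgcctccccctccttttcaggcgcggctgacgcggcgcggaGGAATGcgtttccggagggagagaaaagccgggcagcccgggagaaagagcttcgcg
Itgav promoter, chr2:83724147-83724446, likewise: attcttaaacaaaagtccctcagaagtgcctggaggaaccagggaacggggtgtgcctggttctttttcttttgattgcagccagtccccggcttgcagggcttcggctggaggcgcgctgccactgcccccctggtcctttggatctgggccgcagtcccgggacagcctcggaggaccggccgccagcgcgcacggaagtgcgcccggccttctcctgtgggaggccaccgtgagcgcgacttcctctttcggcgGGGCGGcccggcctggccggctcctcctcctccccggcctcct
Lamb3 intron, chr1:193298197-193298496, in every library: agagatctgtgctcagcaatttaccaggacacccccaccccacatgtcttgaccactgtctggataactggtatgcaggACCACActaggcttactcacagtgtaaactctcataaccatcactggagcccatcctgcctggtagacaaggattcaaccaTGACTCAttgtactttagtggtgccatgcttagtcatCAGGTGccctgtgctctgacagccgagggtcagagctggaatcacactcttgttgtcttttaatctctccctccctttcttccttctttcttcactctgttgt
Itgb4 intron, chr11:115992156-115992455, in BM7 and BM8 only: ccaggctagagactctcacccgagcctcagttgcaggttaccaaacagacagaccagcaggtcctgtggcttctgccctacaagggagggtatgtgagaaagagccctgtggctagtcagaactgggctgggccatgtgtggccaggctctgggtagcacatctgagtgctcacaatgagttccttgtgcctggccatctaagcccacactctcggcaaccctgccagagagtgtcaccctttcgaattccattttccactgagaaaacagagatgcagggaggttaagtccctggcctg
Itga1 intron, chr13:114962097-114962396, in the 4 WT libraries only: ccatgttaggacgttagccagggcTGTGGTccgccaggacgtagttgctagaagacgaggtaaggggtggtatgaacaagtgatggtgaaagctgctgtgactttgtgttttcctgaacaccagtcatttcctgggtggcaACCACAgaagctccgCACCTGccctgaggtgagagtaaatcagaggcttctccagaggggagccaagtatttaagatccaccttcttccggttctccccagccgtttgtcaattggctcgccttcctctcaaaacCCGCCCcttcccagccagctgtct
Itgb3 intron, chr11:104626036-104626335, in 3 of the 4 Lats1-CKO libraries only: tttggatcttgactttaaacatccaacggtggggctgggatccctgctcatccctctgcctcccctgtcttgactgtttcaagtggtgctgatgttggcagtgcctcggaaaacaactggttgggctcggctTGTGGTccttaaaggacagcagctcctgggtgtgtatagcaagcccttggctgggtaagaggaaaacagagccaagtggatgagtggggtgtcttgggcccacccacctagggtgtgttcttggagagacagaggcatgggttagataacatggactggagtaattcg

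None of the 5 motifs was found in the Lamb3 promoter window or in the Itgb4 window. The Itgb1 promoter held a TEAD and an Sp/KLF match, and the Itgav promoter an Sp/KLF match. The Itga1 window held RUNX letters 2 times, and E-box and Sp/KLF letters 1 time each. The Itgb3 window held a RUNX match, and the Lamb3 intron held an AP-1, a RUNX and an E-box match. A RefSeq promoter was at hand for 23 of the 37 genes (26 windows). Sp/KLF letters stood in 46.2% of these and in 35.9% of all 32619 promoters, and E-box letters in 30.8% and 20.3%. AP-1, TEAD and RUNX letters each stood in 11.5% of the integrin and laminin promoters, against 7.85%, 14.6% and 16.6% of all promoters. Over the 437 regions of these genes, AP-1 letters were found in 31.6% of the 300-base windows and in 29.5% of the windows of all 183173 regions. The shares were 24% and 21% for TEAD, 27.5% and 27.8% for RUNX, 13.5% and 13% for Sp/KLF, and 21.7% and 19.4% for E-box. These shares are a description, and a match is not a bound site.

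The deposited lists hold between 14753 peaks (BM3) and 99022 (BM8), and every other list holds at least 51497. Each peak has a score, and because the lists give no reads and their scores were not normalised between libraries, a peak is given below by the percentile of its score within its library (100 is the highest). A value of 0 means that no peak was listed, not that the chromatin was shown to be closed. BM3 stood apart from the rest, with a peak within 1 kb of a start in 34.6% of all protein-coding genes against 50.9% to 59.3% in the other libraries, and results are given with and without it. The Lats1 start had a peak in 7 of 8 libraries, at percentiles of 57.6 and 62.4 in WT luminal, 53.6 and 57.8 in WT basal-like, 0 and 75.2 in Lats1-CKO luminal, and 81.5 and 74.7 in Lats1-CKO basal-like. An open promoter does not test a conditional deletion inside the gene, so the genotype labels were not checked by it. The Epcam start had peaks in all luminal libraries (65 to 88) and in the WT basal-like ones (66.1 and 22.5), and none in BM4 or BM8. The same held for Cdh1, the epithelial cadherin, which had percentiles of 67.2 to 92.9 in the other 6 libraries and 0 in BM4 and BM8. Of the luminal keratins, Krt8 did not share this pattern, while Krt18 shared the absence in BM4 and BM8. Krt8 had a peak in all 8 libraries, at 50.3 in BM4 and 43 in BM8, against 29.5 (BM7) to 96.3 (BM5) in luminal libraries. Krt18 had none in BM3, BM4 or BM8, and 26.2 to 57.6 in the others. Krt5, a defining basal keratin, had a peak only in BM7 (1.23), so the basal-like label had no support from it, while Krt14 had a peak in all 8 (8.28 to 82).

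At the starts, the share of integrin and laminin genes with a peak was above that of all genes in 7 libraries and below it in BM3, a difference that was not tested. Genes with more annotated starts have more windows for a peak, and start numbers (1 to 10 in these genes) were not matched. A peak lay within 1 kb of an annotated start in 26 of the 37 genes in BM1, 20 in BM5, 23 in BM2, 22 in BM6, 27 in BM7, 25 in BM4 and 27 in BM8, that is in 54.1% to 73% of them, against 50.9% to 59.3% of all genes. In BM3 it was 11 genes, or 29.7%, against 34.6%. Among genes with a peak, the median percentile of the integrin and laminin genes was 56.2 to 76.8, and that of all genes 65.7 to 84.4, and the former was the lower in each of the 8 libraries. Their gene bodies were denser in peaks. BM1 had 4.85 peaks per 100 kb of integrin and laminin gene body against 4.17 over all genes, and the ratio was 1.15 to 1.27 in 7 libraries and 0.779 in BM3. The body of at least 31 of the 37 genes held a peak in every library other than BM3, where 21 did. These are 83.8% to 100% of them, against 59.6% to 68% of all genes, and 56.8% against 35.3% in BM3. Gene length was not matched in these shares, and a longer body has more room for a peak.

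**Figure D1:**
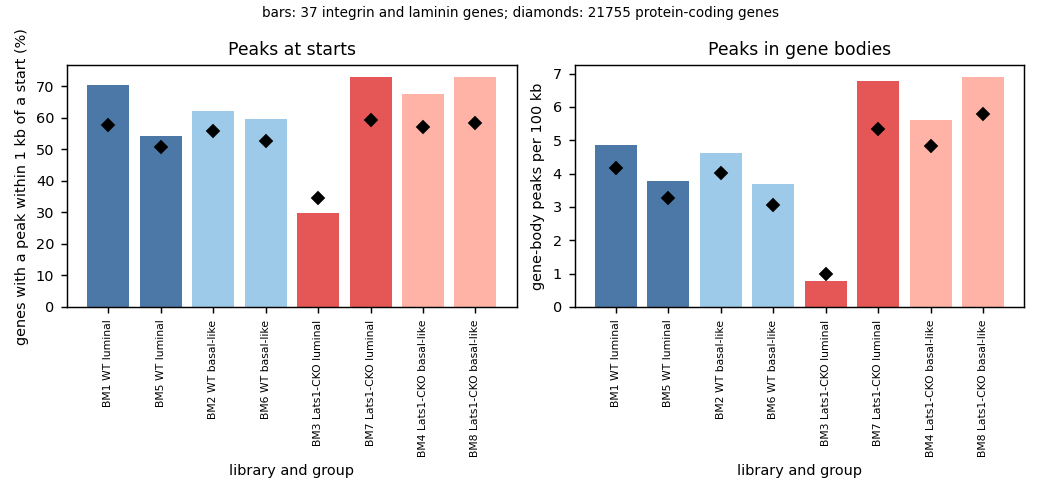
Share of genes with a peak within 1 kb of an annotated start (left, %) and density of peaks in gene bodies (right, peaks per 100 kb) by library. Bars are the 37 integrin and laminin genes, coloured by group, and diamonds all 21755 protein-coding genes; bars stand above diamonds in every library except BM3.

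The genes ranged from a start peak in every library to none, and both ends held a smaller share of them than of all genes, which was not tested. A start peak was present in all 8 libraries for 8 genes (21.6%, against 32.5% of all genes), among them Itga6, Lamc1, Itga8, Itgav, Itgb1, Itga2b and Itgb8. Another 7 genes lacked it in 1 library, which was BM3 for Lamb3, Itga9, Itga1, Itga5 and Itgb5, BM4 for Itgb4 and BM6 for Lama3. No library had a start peak for Itga4, Itgam, Itgad, Itga11, Lama2, Itgb2 or Itgae (18.9%, against 33% of all genes). Of these, Itgam, Itgad, Itgb2 and Itgae encode subunits of leukocyte integrins, Itga4 a subunit of the fibronectin and VCAM-1 receptor, Itga11 a collagen receptor of fibroblasts, and Lama2 the alpha chain of muscle laminin. Genes between these extremes included Itgb6 with a start peak in 1 library and Itgax and Itga2 in 2.

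**Figure D2:**
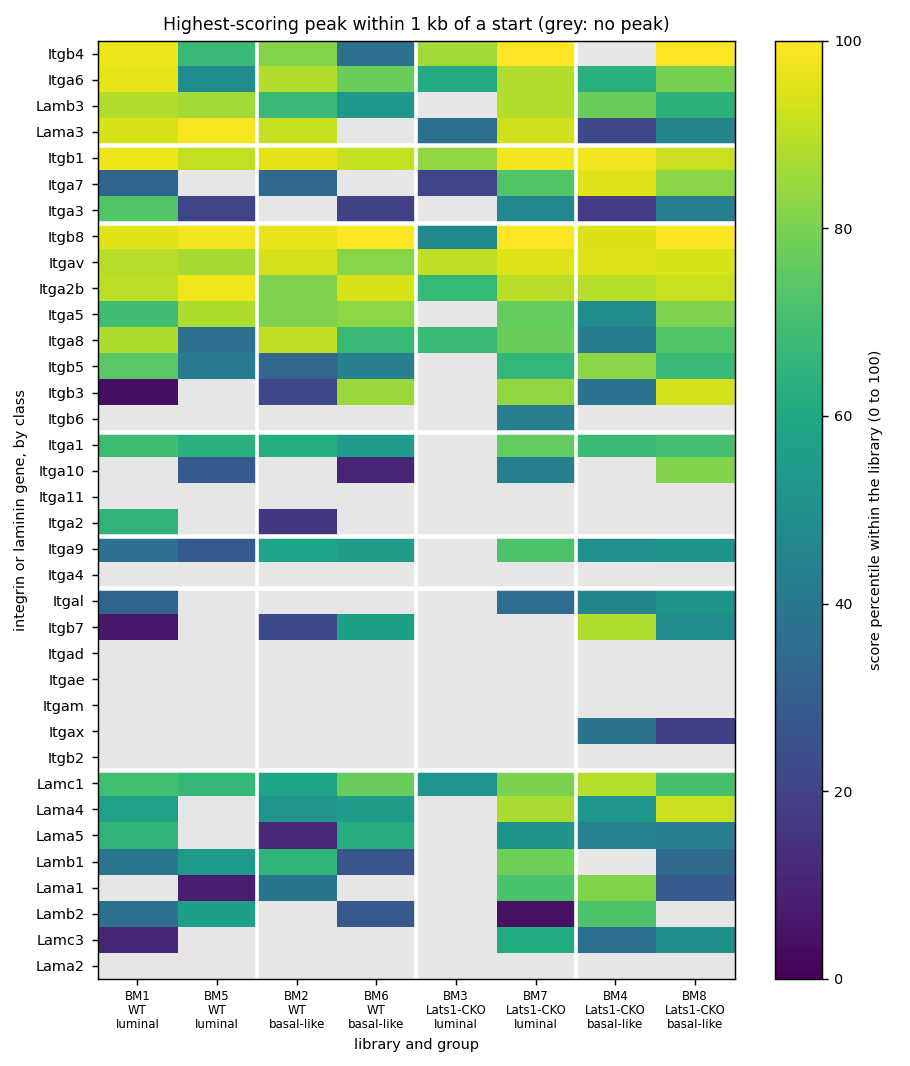
Percentile of the highest-scoring peak within 1 kb of an annotated start, for 36 integrin and laminin genes (rows, by class, split by white lines) in each library (columns, by group). Grey means no peak; Itgb8, Itgb1 and Itgav are bright across the columns, most leukocyte integrins are grey, and BM3 is grey in 26 of 36 rows.

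The highest median start percentiles were those of Itgb8, Itgb1 and Itgav. Itgb8, whose product pairs with that of Itgav and activates TGF-beta, had the highest median percentile of all 37 genes, 97.6. Its percentiles were 95 and 98.4 in WT luminal, 96.8 and 99.7 in WT basal-like, 48 and 99.8 in Lats1-CKO luminal and 94.7 and 99.6 in Lats1-CKO basal-like. Only BM3 stood low, and the groups overlapped. Itgb1, the shared beta subunit of the laminin and collagen receptors, followed with a median of 94 and percentiles of 97.4, 90.8, 95.8, 91.4, 83.5, 98.3, 98.1 and 92.1 in the same order of libraries. Itgav had a median of 92.1, with 89.3, 86.5, 93.7, 82.3, 90.5, 95.6, 95.3 and 94.4. The order of these 3 medians does not separate the genes, since their ranges over libraries overlapped. Itga2b, the platelet integrin subunit, had a peak in every library (67 to 97.8), and 2 regions of it open in all libraries lay in coding exons at internal transcript starts.

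Itga6 was open at its start in all libraries, and it was also the marker of the gate. The region, chr2:71786754-71787736 (mm10), lies 41.6 kb inside the longest annotated gene model, at the start of the main transcripts. Its percentile was 96.1 and 48.2 in WT luminal, 88.4 and 77.3 in WT basal-like, 61.3 and 88.4 in Lats1-CKO luminal and 63.5 and 79.4 in Lats1-CKO basal-like. The groups overlapped, and the 2 WT luminal libraries were the highest and the lowest of all. A second Itga6 region, in an intron at chr2:71812847-71813032, was also open in all libraries at 24.3 to 66.

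The start of Itgb4, the partner of Itga6 in hemidesmosomes, was open in every library except BM4. At chr11:115974829-115975333 its percentile was 97.6 and 67.7 in WT luminal, 81.6 and 37.5 in WT basal-like, 86.2 and 94.4 in Lats1-CKO luminal, and 0 and 62.8 in Lats1-CKO basal-like. Each luminal library but BM5 was above each basal-like one, so the subpopulations overlapped. A different region, in an intron at chr11:115992138-115992474 and 17.6 kb from the 5′ end, had a peak in BM7 and BM8 only. The score there was 1182 in BM7 (rank 149 from the top of 93467 peaks) and 2652 in BM8 (rank 7 of 99022), while the median score was 87 and 93 in these libraries. The other 6 libraries had no peak there. It lies 458 bp from the start of a non-coding Itgb4 transcript and 1241 bp from the start of the antisense lincRNA B230344G16Rik, and ATAC-seq does not tell strands apart. Because it is the highest-scoring peak within 1 kb of an Itgb4 start in BM7 and BM8, the 99.8 and 100 of these libraries for the gene are values of the intronic region.

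**Figure D3:**
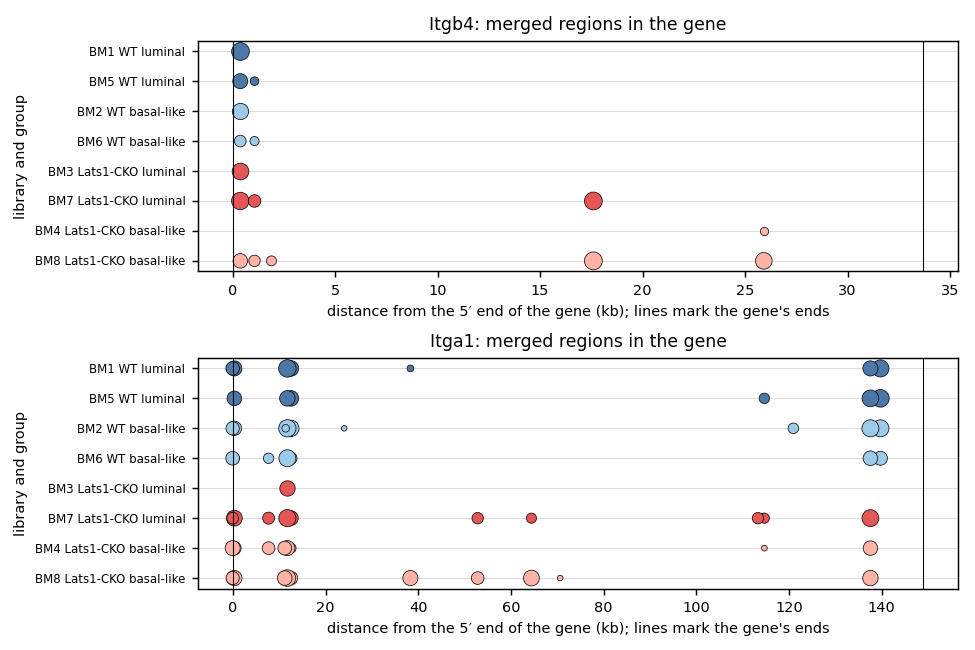
Peaks along Itgb4 (top) and Itga1 (bottom), with distance from the 5′ end of the gene in kb on the x axis and libraries by group on the y axis. Point area grows with the score percentile; the Itgb4 point at 17.6 kb is seen in BM7 and BM8 only, and near the far end of Itga1 the 4 WT libraries show 2 neighbouring points where BM4, BM7 and BM8 show 1 and BM3 none.

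The main start peaks of Lama3 and Lamb3 were missing from several libraries, BM4 among them. Lama3 has 2 annotated starts, and at the internal one, 170 kb from the 5′ end, the percentile was 94 and 98.7 in WT luminal, 91.1 and 0 in WT basal-like, 36 and 92.6 in Lats1-CKO luminal, and 0 and 0 in Lats1-CKO basal-like. All 4 luminal libraries and 1 of 4 basal-like libraries had this peak. The antisense gene Gm29200 starts 200 bp away. At the first Lama3 start the percentiles were 54.9, 62.4, 64.2, 0, 0, 82.9, 21.6 and 45.6 in the same order. Lamb3 was open at its main start, chr1:193301876-193302088, at 88.5 and 70.3 in WT luminal, 67.7 and 0 in WT basal-like, 0 and 81 in Lats1-CKO luminal, and 0 and 41.5 in Lats1-CKO basal-like. The neighbouring region at chr1:193301282-193301691 had 81.8, 63.9, 58.2, 47.6, 0, 88.6, 0 and 64.3, again with none in BM3 and BM4. The start peak that BM4 had for Lamb3 (77.5) lay at another annotated start, shared with G0s2. Thus BM4 lacked the main start peak of Itgb4, the internal one of Lama3 and that of Lamb3, and BM8 lacked the internal one of Lama3. BM4 and BM8 also lacked the start peaks of Epcam, Cdh1 and Krt18 (the last was missing from BM3 as well). They had those of Krt8 (50.3 and 43) and Krt14 (30 and 82). BM6 lacked the internal Lama3 and the main Lamb3 start peaks as well, while it had those of Epcam (22.5) and Cdh1 (67.2). No comparison of 2 libraries with 2 can give an exact two-sided p below 0.333, so the group of BM4 and BM8 was not tested against another group.

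**Figure D4:**
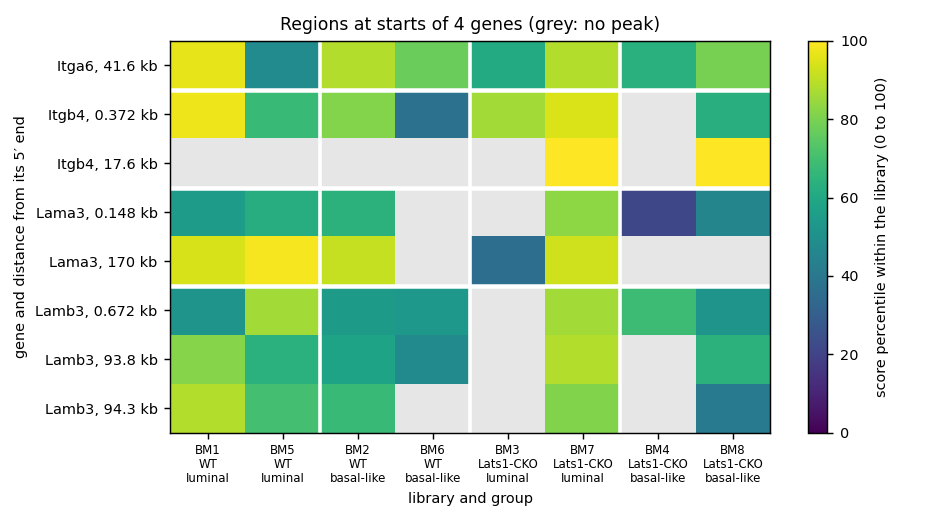
Score percentile of regions within 1 kb of an annotated start of Itga6, Itgb4, Lama3 and Lamb3 that had a peak in at least 5 libraries, and of the Itgb4 intronic region, by library and group. Rows give the distance from the 5′ end of the gene in kb and grey means no peak; BM4 is grey at Itgb4 0.372 kb, Lama3 170 kb, and Lamb3 93.8 and 94.3 kb.

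Between genotypes, no integrin or laminin gene had start percentiles that kept the 4 Lats1-CKO and the 4 WT libraries apart. Among all genes 0.267% were apart with Lats1-CKO higher and 0.483% with Lats1-CKO lower. Over all 21755 genes, no gene passed an adjusted p of 0.05 in the exact permutation test of 4 libraries against 4 (Benjamini-Hochberg, two-sided, smallest adjusted p 1), and 163 genes had an unadjusted p under 0.05. The smallest p this design allows is 0.0286. Without BM3, Lamc3, Itgav, Itgal and Itga7 were higher in all 3 Lats1-CKO libraries than in all 4 WT libraries, or 10.8% of the 37 genes, while 6.91% of all genes were. None was lower, against 0.529% of all genes. Without BM3, every Lats1-CKO list was also longer (86279 to 99022 peaks) than every WT list (51497 to 72685). Genotype and list length can then not be told apart, here and in the other genotype comparisons without BM3. Lamc3, the gamma 3 chain, had percentiles of 61.2, 36.4 and 49.7 in BM7, BM4 and BM8 and 10.9, 0, 0 and 0 in WT libraries. Itga7, a laminin receptor of muscle, had 73, 95.5 and 82.5 against 32.3, 0, 34.1 and 0, and 20.1 in BM3. These Itga7 values mix 2 regions. That of BM1 (32.3) is from the 5′ end of the gene, and the other peaks are from chr10:128950281-128950733, at an internal start. The Itgal peaks, at chr7:127308990-127309097, also lay at an internal start. The range of Itgav was narrow, with 94.4 to 95.6 against 82.3 to 93.7. The median difference over the 37 genes without BM3 was 2.31 percentiles, and 0.0698 over all genes.

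Between subpopulations, 1 gene was apart at its starts. Itgb7, which pairs with Itga4 or Itgae on lymphocytes, had percentiles of 22.3 and 57 in WT basal-like and 88.1 and 48.1 in Lats1-CKO basal-like libraries, and 6.57 and 0 in WT luminal and 0 and 0 in Lats1-CKO luminal libraries. Every basal-like library stood above every luminal one (53.9 ± 27.1 against 1.64 ± 3.29, SD, n = 4 each, exact permutation p = 0.0286, adjusted p = 1), and no other gene of the 37 did, against 0.487% of all genes. None of the 37 was lower in all basal-like libraries, against 0.138% of all genes. The Itgb7 libraries were no longer apart when each list was limited to its top 10000 peaks (difference 0, exact permutation p = 1), with peaks above the median score (36.3, exact permutation p = 0.429) or by presence or absence (exact permutation p = 0.143). The Itgb7 peaks lay 943 bp upstream of the start and in an intron 691 bp downstream of one, not at the start itself. BM5 (WT luminal) had a peak of percentile 44.9 in the intronic region, just outside the 1 kb window. Among 8 fibroblast markers, 4, 3, 5 and 4 had start peaks in BM2, BM6, BM4 and BM8, against 2, 2, 0 and 2 in BM1, BM5, BM3 and BM7. Their mean percentile was 20.5 to 32.3 in basal-like and 0 to 14.7 in luminal libraries, with Col3a1 and Lum at 0 throughout. Among 8 immune markers, 2, 1, 3 and 5 had start peaks in BM2, BM6, BM4 and BM8, against 2, 2, 0 and 4 in the luminal libraries, with Cd3e, Cd79a and Tyrobp at 0 in all libraries and Ptprc, the pan-leukocyte marker, listed only in BM8 (45.6). Cd68 had a start peak in every library but BM3 (30.7 to 71.3), and Csf1r in all but BM3 and BM6 (12.1 to 91.9). Endothelial markers were listed in 0 to 2 of 6 genes, with Cdh5, Tie1 and Emcn at 0. Pecam1 had 18.9 in BM2, 42.5 in BM4, 89.3 in BM7 and 51.8 in BM8. Tek had 42.4 in BM1 and 60.4 in BM6, and Kdr 4.14 in BM1 and 21.6 in BM4. The part of other cells in the Itgb7 difference was not tested, and in bulk libraries fewer cells of a type and a weaker peak per cell cannot be told apart. Itgax, of macrophages and dendritic cells, had start peaks only in BM4 (38.6) and BM8 (18.5).

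Without BM3, Lamb3 and Lama3 were also apart, lower in all 4 basal-like libraries than in the 3 luminal ones, which 1.93% of all genes were. Itgb7 again was the gene apart in the other direction, against 0.487% of all genes. Lama3 had 92.6 to 98.7 in BM1, BM5 and BM7 and 0 to 91.1 in basal-like libraries, and Lamb3 86.3 to 88.6 against 53.4 to 77.5. These are the highest values over all starts of a gene, so they mix regions. The luminal Lama3 values are from the internal start, and those of BM4 and BM8 from the first. For Lamb3 they are from the main start in BM1 and BM2 and its neighbouring region in BM7 and BM8. They are from chr1:193208299-193208443 in BM5 and BM6, and from the start shared with G0s2 in BM4. With BM3 counted, both genes overlapped, since Lamb3 was 0 there and Lama3 36.

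In gene bodies, peaks were counted per 10000 peaks of the library. Itga1, a collagen receptor subunit, was the 1 gene apart between genotypes, lower in Lats1-CKO, as were 3.48% of all genes; none was higher, against 0.883%. It had 0.963 and 1.02 in WT luminal, 1.28 and 1.36 in WT basal-like, 0.678 and 0.963 in Lats1-CKO luminal and 0.927 and 0.909 in Lats1-CKO basal-like libraries. The difference was -0.286 (0.869 ± 0.13 against 1.16 ± 0.193, SD, n = 4 each, exact permutation p = 0.0286, adjusted p = 0.655). These ratios rest on 6 to 9 peaks in a library and 1 in BM3, and the values of BM1 and BM7 were equal after rounding. Itga1 was no longer apart when peaks were assigned by their centre, without scaling, with 10000 peaks per library or without 1 kb around each start. Without BM3, Itga1 remained lower, against 9.66% of all genes, and Itga9 and Itga3 were higher, against 3.09%. The scaling divides by the list length, which was then larger in every Lats1-CKO library than in any WT library.

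**Figure D5:**
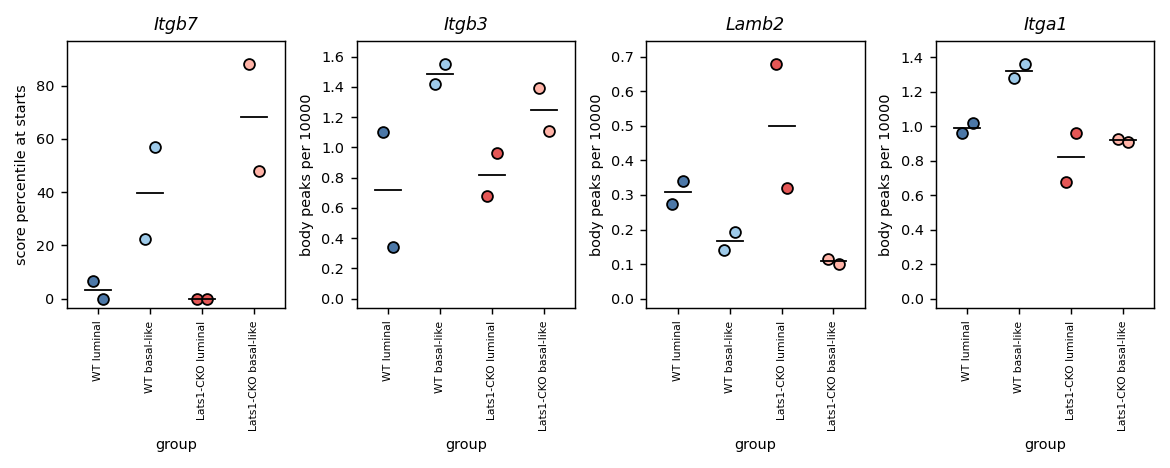
Values of the 4 genes whose libraries were apart in 1 contrast: the start percentile of Itgb7, and the gene-body peaks per 10000 peaks of Itgb3, Lamb2 and Itga1, by group. Points are libraries and lines are means of 2 libraries; all basal-like points of Itgb7 and Itgb3 lie above the luminal ones, those of Lamb2 below, and all Lats1-CKO points of Itga1 lie below or just under the WT ones.

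Between subpopulations, Itgb3 had more body peaks in basal-like libraries, as had 0.86% of all genes, and Lamb2 fewer, as had 0.432%. Itgb3, the beta subunit of the vitronectin receptor, had 1.42, 1.55, 1.39 and 1.11 peaks per 10000 in BM2, BM6, BM4 and BM8, and 1.1, 0.34, 0.678 and 0.963 in BM1, BM5, BM3 and BM7 (difference 0.598, exact permutation p = 0.0286, adjusted p = 1). The nearest libraries, BM8 with 11 peaks and BM1 with 8, were almost level on this scale. Lamb2, the beta 2 chain, had 0.142, 0.194, 0.116 and 0.101 against 0.275, 0.34, 0.678 and 0.321, but this is 1 peak in each basal-like library against 1 to 3. The 1 Lamb2 region open in all libraries, chr9:108490519-108490858, covers the start of the next gene, Usp19. Neither gene was apart with unscaled numbers (exact permutation p = 0.0857 for Itgb3 and 0.143 for Lamb2), with 10000 peaks per library (0.314 and 1), with peaks above the median score (0.286 and 0.686) or without 1 kb around each start (0.0571 and 0.143). Without BM3, Lamc1 and Itgb3 were higher (1.42% of all genes) and Itgb6, Itga4 and Lamb2 lower (1.14%). In the body contrasts 949 genes (genotype) and 281 genes (subpopulation) had p under 0.05 and none passed the adjusted threshold, so neither did any integrin or laminin gene.

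The 37 genes held 437 merged regions, of which 341 were intronic, 53 touched a coding exon, 36 a non-coding part of an exon and 7 lay upstream. Regions seen in 1 library made up 35.9% of them and 44.5% of all 183173 regions, and regions seen in all 8 made up 4.81% and 5.95%. Of the 21 regions open in all libraries, 13 lay over 1 kb from a start of the gene itself. Of these 13, 3 covered the start of another protein-coding gene: Usp19 at Lamb2, Haspin within Itgae and Pelo within Itga1 (chr13:115090077-115090371, percentiles 68.4 to 94.8). The others included an intron of Itgb6 at chr2:60689003-60689419, with percentiles of 74.3 to 99.1 although the gene had a start peak only in BM7 (43.3), and an intron of Lamc1 at chr1:153300404-153300833, with 87.2 to 98.9. The 3′ end of Itga10, a chondrocyte collagen receptor, held one at chr3:96663462-96663845 with 91.2 to 98.9. The most body peaks over the 8 libraries were in Itgb5 (91), Lamb3 (87) and Itgb6 (85). The Lamb3 intron shown above, 3448 bp before the nearest start, had 82.1, 71.3, 97.4, 74.1, 41, 92.3, 98.8 and 73.7 in the order used above, and the highest of these was in BM4, which lacked the main start peak.

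A single region of the 437 separated the genotypes in all 8 libraries. The Itga1 intronic region chr13:114962117-114962378 had peaks at 90.6 and 95.9 in WT luminal and 89.1 and 57.4 in WT basal-like libraries and none in any Lats1-CKO library. This is 0.229% of the regions of these genes, against 0.0633% of all regions (0.0661% without BM3). An adjacent region, chr13:114964270-114964545, had peaks in all libraries except BM3 (62.3 to 90.1). No region was in every Lats1-CKO library and in no WT library, against 0.0071% of all regions. Without BM3, 8 regions (1.83%) were, against 1.5% of all. The Lats1-CKO lists left are longer than every WT list, and the part of list length in this pattern was not tested. Of the 8 regions, the one with the highest smallest percentile was the Itgb3 intronic region chr11:104626069-104626303, with 70, 83.2 and 78.1 in BM7, BM4 and BM8. The next was chr2:31887111-31887270, 21 bp upstream of the Lamc3 start, with 61.2, 36.4 and 49.7. The others lay in introns of Itgav, Itgae, Itgb1, Itga8, Itgb5 and Lamb3, with a smallest percentile of 29.9 or less. No region was confined to and shared by all basal-like libraries (0.0906% of all regions, 0.0917% without BM3) or by all luminal ones (0.0071%, and 0.181% without BM3).

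Among 27 genes of integrin adhesion complexes and matrix partners, 19 to 22 had a start peak in each library except BM3, which had 16. A start peak was present in all 8 libraries for 15 (55.6%, against 32.5% of all genes), among them Tln1, Vcl, Ilk, Ptk2 and Pxn of focal adhesions and Plec and Dst of hemidesmosomes, and in none for Fermt3 and Nid1. Of the 27, Dst was apart at its starts, higher in basal-like libraries, as were 0.487% of all genes. Fermt2 and Itgbl1 had more body peaks in basal-like libraries, as had 0.86%. None was apart between genotypes with all 8 libraries. Without BM3, Itgb1bp1 was higher at its starts in Lats1-CKO (6.91% of all genes), Fermt1 had fewer body peaks in Lats1-CKO (9.66%), and Dst joined the genes with more body peaks in basal-like libraries (1.42%).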

How the data were processed

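ATAC-seq of 8 libraries in 4 groups of 2 was used. The authors trimmed reads with cutadapt, aligned them uniquely to mm10 with bowtie 1.0.0, removed mitochondrial and duplicate reads and long fragments, called peaks with MACS2 in each library, and removed blacklisted peaks. The submitters' processing notes give MACS2 2.1.1.20160309 and Picard 2.3.0, and the paper's text names another MACS2 release. The deposited lists hold 1 score per peak, taken to be that of MACS2 and not normalised between libraries. They hold no read counts, so depth is known only as the number of peaks. Counting error and the study's DiffBind comparison were therefore out of reach. The study discarded 1 Lats1-CKO luminal replicate when merging, without naming it. Here all were kept and each was left out in turn.

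Scores became percentiles within a library (ties at their mean rank). For each gene the highest percentile among peaks touching 1 kb on either side of any GENCODE M21 transcript start, and the number of peaks touching the gene body per 10000 peaks (minimum overlap 1 bp), entered a two-sided exact permutation test of 4 against 4 libraries (70 splits), adjusted by Benjamini-Hochberg over 21755 genes. Libraries apart means that the groups' values do not overlap. Regions are the peaks of all lists merged. As a check of the code, the step was run on values shuffled within each gene. Some genes were shifted by more than the percentile range, so their recovery was fixed in advance. Software was python 3.11.15, numpy 2.4.6, pandas 2.3.3, R 4.3.3 and limma 3.58.1. Genes and lists were chosen with earlier results of these data known. Values are given for Itga6, Itgb4, Lama3 and Lamb3, for genes whose 4 and 4 libraries were apart, for the 3 with the highest median start percentile and the 3 with most body peaks. Itgax, Itga2b, Itga10, genes apart only without BM3, such as Lamc3 and Itga7, and single regions outside this rule were named after their values were seen. The values of 1 gene are not reported here. Alternatives were other windows, peak sets and scalings and limma with genotype and population.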

Additional observations from a re-analysis of the deposited data

Results flagged for a closer look

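The number of integrin and laminin genes with a start peak was 11 in BM3, against 25, 27 and 27 in the other Lats1-CKO libraries. The gap to the nearest of them was 0.875 of the range of the 4 libraries, which is larger than Dixon's criterion for an outlying value allows. Chance alone would mark about 1 in 20 such groups, and 8 were examined. BM3 also has the fewest peaks (14753).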

How the results depend on the processing

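The numbers of integrin and laminin genes apart between groups are small and moved with most settings. With 10000 peaks per library, start percentiles separated 0 genes between subpopulations in place of 1, body peaks 0 in place of 1 between genotypes, and 1 (Lama2) in place of 2 between subpopulations. With peaks above the median score of their library these were 0, 3 (Itga1, Itgb6 and Lamb2) and 2, and the last were Itga8 and Itga9 in place of Itgb3 and Lamb2. A 5 kb window gave 2 for starts between subpopulations (Itgb3 and Itgb7), and presence or absence gave 0. For body peaks, assignment by centre and unscaled numbers each gave 0 between genotypes, unscaled numbers 0 between subpopulations, and leaving out 1 kb around starts 2 (Itgb6 and Lama5) and 1 (Lama4). With limma, 0 genes passed an adjusted p of 0.05 in any of the 4 comparisons, and 2, 1, 2 and 5 of the 37 genes had an unadjusted p under 0.05. Leaving out 1 library gave 0 to 4 genes for starts between genotypes, 1 to 3 for starts between subpopulations, 1 to 4 for body peaks between genotypes and 2 to 6 between subpopulations. Without BM3, whose list is the shortest (14753 peaks), the regions in every Lats1-CKO library and in no other were 8 in place of 0. Over all regions they were 2739 in place of 13. The differences of Itgb7, Itga1, Itgb3 and Lamb2 kept their sign under the other windows, peak sets and scalings that gave a difference. Leaving out 1 library or using limma could not change the sign, since these genes were chosen as apart. In 38 of the checks of these genes the exact permutation p, or the adjusted p of limma, was no longer under 0.05. The 38 include settings with 1 library left out where the gene was still apart, such as Itgb7 without BM1 (exact permutation p = 0.0571). The cause of the changes between settings was not tested. No paired analysis was possible because the labels give no replicate numbers, and those used here follow accession order and pair nothing. The number of peaks in a list limits which absences can be read, above all in BM3.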
